A study of Mus musculus with 2 samples.

Results

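The 8 genes described here encode receptors and regulators that are used to recognise exhausted T cells: the inhibitory receptors Lag3, Havcr2 and Tigit, the surface proteins Cd101 and Cd38, the costimulatory receptor Tnfrsf9, the nuclear factor Tox and the signalling regulator Rgs16. They were taken by symbol from the gene lists of both libraries, and all 8 are among the 19070 genes listed in each. The data are 2 libraries of single cells from subcutaneous tumours of the cell line Lewis lung carcinoma (LLC), which derives from a lung cancer of the mouse. The control library is labelled with an IgG2a isotype control antibody, while the series text calls its cells untreated, and the other library is labelled with an anti-PD-1 antibody and was collected 7 days after treatment. How many mice, and of which strain and age, went into a library is not stated in the labels. Each group is 1 library, so no difference below could be tested against replicates, and the treatment cannot be told apart from differences between animals or preparations.

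T cells that meet their antigen for long, as in tumours and chronic infection, take up a state called exhaustion, in which several inhibitory receptors are carried at once. Lag3 binds MHC class II, Havcr2 (TIM-3) has several partners that include galectin-9, and Tigit binds the poliovirus receptor family, and each of them dampens T cell activity alongside PD-1, the receptor that the antibody targets. Tox is the factor that sets up the exhausted state, and Tnfrsf9 (4-1BB) appears on T and NK cells after activation. Most of these genes are also used by other cells: Havcr2 by monocytes and dendritic cells, Cd38 by macrophages and B cells, and Tnfrsf9 by NK and endothelial cells.

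All 8 are protein-coding genes. On mm10 they lie on chromosome 6 from 124904361 to 124911705 (Lag3), chromosome 11 from 46454935 to 46481255 (Havcr2), chromosome 16 from 43648867 to 43664146 (Tigit), chromosome 3 from 100993529 to 101029556 (Cd101), chromosome 5 from 43868553 to 43912375 (Cd38), chromosome 4 from 150914562 to 150946102 (Tnfrsf9), chromosome 4 from 6686353 to 6991557 (Tox) and chromosome 1 from 153740349 to 153745468 (Rgs16). The counts are per gene, with no exon or UTR positions. RefSeq windows of 250 bases before a transcription start, on GRCm38.p6, were found for 6 of the 8 genes. Those of Havcr2, Rgs16 and Tnfrsf9 are shown because the results on cells other than T cells turn on these genes, and Tnfrsf9 has windows at 2 starts that hold different motifs. Capitals mark matches to the motifs given after the sequences, on either strand.
Havcr2, chr11:46454681-46454930, plus strand: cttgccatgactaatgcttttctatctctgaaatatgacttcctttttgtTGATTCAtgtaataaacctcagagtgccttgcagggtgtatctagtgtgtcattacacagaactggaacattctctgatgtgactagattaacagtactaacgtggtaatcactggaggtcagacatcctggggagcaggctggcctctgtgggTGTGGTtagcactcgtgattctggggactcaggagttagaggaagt
Rgs16, chr1:153740103-153740352, plus strand: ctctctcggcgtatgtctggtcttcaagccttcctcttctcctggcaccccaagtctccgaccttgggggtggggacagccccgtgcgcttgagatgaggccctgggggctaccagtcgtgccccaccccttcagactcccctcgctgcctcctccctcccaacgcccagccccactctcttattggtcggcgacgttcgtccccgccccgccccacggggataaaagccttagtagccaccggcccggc
Tnfrsf9, first start, chr4:150919905-150920154, plus strand: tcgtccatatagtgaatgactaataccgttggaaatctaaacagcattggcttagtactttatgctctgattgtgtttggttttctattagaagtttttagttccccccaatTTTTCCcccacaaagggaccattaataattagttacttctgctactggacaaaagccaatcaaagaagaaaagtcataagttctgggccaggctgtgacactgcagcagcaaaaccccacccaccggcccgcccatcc
Tnfrsf9, second start, chr4:150927749-150927998, plus strand: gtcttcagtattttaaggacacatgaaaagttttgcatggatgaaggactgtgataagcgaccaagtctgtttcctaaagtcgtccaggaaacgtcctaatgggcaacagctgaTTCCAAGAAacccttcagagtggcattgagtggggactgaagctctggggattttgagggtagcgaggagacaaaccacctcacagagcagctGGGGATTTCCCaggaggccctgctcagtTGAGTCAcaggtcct

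The motifs searched on both strands were those of AP-1 (TGANTCA), RUNX (TGTGGT), NFAT (GGAAAA), STAT (the GAS element, TTCNNNGAA), NR4A (AAAGGTCA), the TATA box (TATAAA) and the NF-kB consensus. The window of Havcr2 holds an AP-1 match from 200 to 194 bases before the start and a RUNX match from 46 to 41. The window at the first start of Tnfrsf9 holds an NFAT match at 138 to 133 bases, and the one at its second start holds GAS (136 to 128), NF-kB (43 to 33, where matches overlap) and AP-1 (15 to 9) matches. The window of Rgs16 holds no match to these letters. Among 32841 windows of the same length, AP-1 letters are found in 6.75%, RUNX in 14.0%, NFAT in 20.4%, GAS in 7.02% and NF-kB in 7.25%. The matches describe the sequence, and no binding was measured.

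Each value below is a count of unique molecular identifiers (UMIs), that is of captured RNA molecules, summed over the cells of a class and scaled to the CPM (counts per 1e6 UMIs) of that class. Intervals are 95% (exact Poisson for CPM, exact Clopper-Pearson for shares and for log2 ratios) and cover counting error only. Log2 ratios divide anti-PD-1 by control, and a gene was called lower or higher past a 2-fold difference, which involves no test. The control library kept 8395 cells (median 7473 UMIs) and the anti-PD-1 library 9422 (median 8744), and the libraries share 107 cell barcodes. Cells were classed by UMIs of marker genes, none of which is among the 8. That gave 237 control and 88 anti-PD-1 T cell-like cells, with median depths of 1394 and 1222 UMIs, against medians of 16896 and 13778.5 UMIs in LLC-like cells. Of the T cell-like cells, 31 and 11 were at the minimum of 3 marker UMIs, and 117 control and 32 anti-PD-1 cells with T cell markers were set aside because they carried markers of another class too. T cell markers summed to 4903 and 6160 CPM in T cell-like cells. Beside them stood macrophage markers at 971 and 891 CPM and LLC markers at 269 and 266, which were read in T cell-like cells of both libraries. Levels are not compared between genes, because the counts depend on probes.

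Over the whole libraries, all 8 genes were lower in anti-PD-1, and 4 of 8 were over 2-fold lower (Lag3, Tigit, Tox and Rgs16), where 27.4% of all measured genes were. Their median log2 ratio was -1.06, and that of all genes was -0.18. Tox had 279 UMIs in control and 31 under anti-PD-1 (2.46 and 0.269 CPM, log2 ratio -3.20, interval -3.78 to -2.66), and Lag3 had 2118 and 640 (18.7 and 5.55 CPM, -1.75). The other receptors were less far apart: Havcr2 had 5990 and 5377 UMIs (-0.18) and Tnfrsf9 14416 and 8184 (-0.84). In such sums, fewer cells of a type and less RNA per cell cannot be told apart. T cell-like cells made up 2.82% of control cells (2.48 to 3.20) and 0.934% of cells under anti-PD-1 (0.750 to 1.15). They held 20.3% of the Lag3, 31.9% of the Tox and 14.0% of the Rgs16 UMIs of the control library, but 1.84% of the Havcr2 and 3.07% of the Tnfrsf9 UMIs.

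Which class carried a gene most strongly differed among the 8. In control, 4 of 8 had their highest CPM in T cell-like cells among the classes of at least 50 cells. Lag3 stood at 880.5 CPM there, at 343 in NK cell-like cells and at no more than 46.6 (dendritic cell-like) in the others. Tox stood at 183 CPM in T cell-like cells and at no more than 9.33 elsewhere. Rgs16 stood at 332 CPM in T cell-like, 105 in neutrophil-like, 89.2 in endothelial cell-like and 75.5 in NK cell-like cells, and the intervals of the last 3 overlap. Tigit had 7 UMIs in control T cell-like cells (14.4 CPM) and 2 in NK cell-like cells, and 0 in macrophage-like cells.

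The other 4 were at least as high outside the T cell-like cells taken as a whole. In control CD8 T cell-like cells alone, Havcr2 stood at 326 CPM and Cd101 at 54.9 CPM (17 UMIs). Havcr2 stood at 383 CPM in NK cell-like, 279.7 in monocyte-like, 226 in T cell-like and 131 in dendritic cell-like control cells. The NK value turned on 7 deep cells described below, and in the other 56 NK cell-like cells Havcr2 stood at 66.8 CPM, under the level in those 3 classes. Tnfrsf9 stood at 3276 CPM in NK cell-like cells, or at 1559 CPM without the same 7 cells, and its levels in T cell-like cells (909 CPM, 827 to 998) and endothelial cell-like cells (856 CPM) overlap. Cd38 was highest in macrophage-like cells (147 CPM), followed by endothelial cell-like cells (98.4). Cd101 had 9 UMIs in neutrophil-like (43.0 CPM) and 19 in T cell-like cells (39.0 CPM), which do not differ beyond counting error. The plot of levels by class shows these patterns for both libraries.

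**Figure D1:**
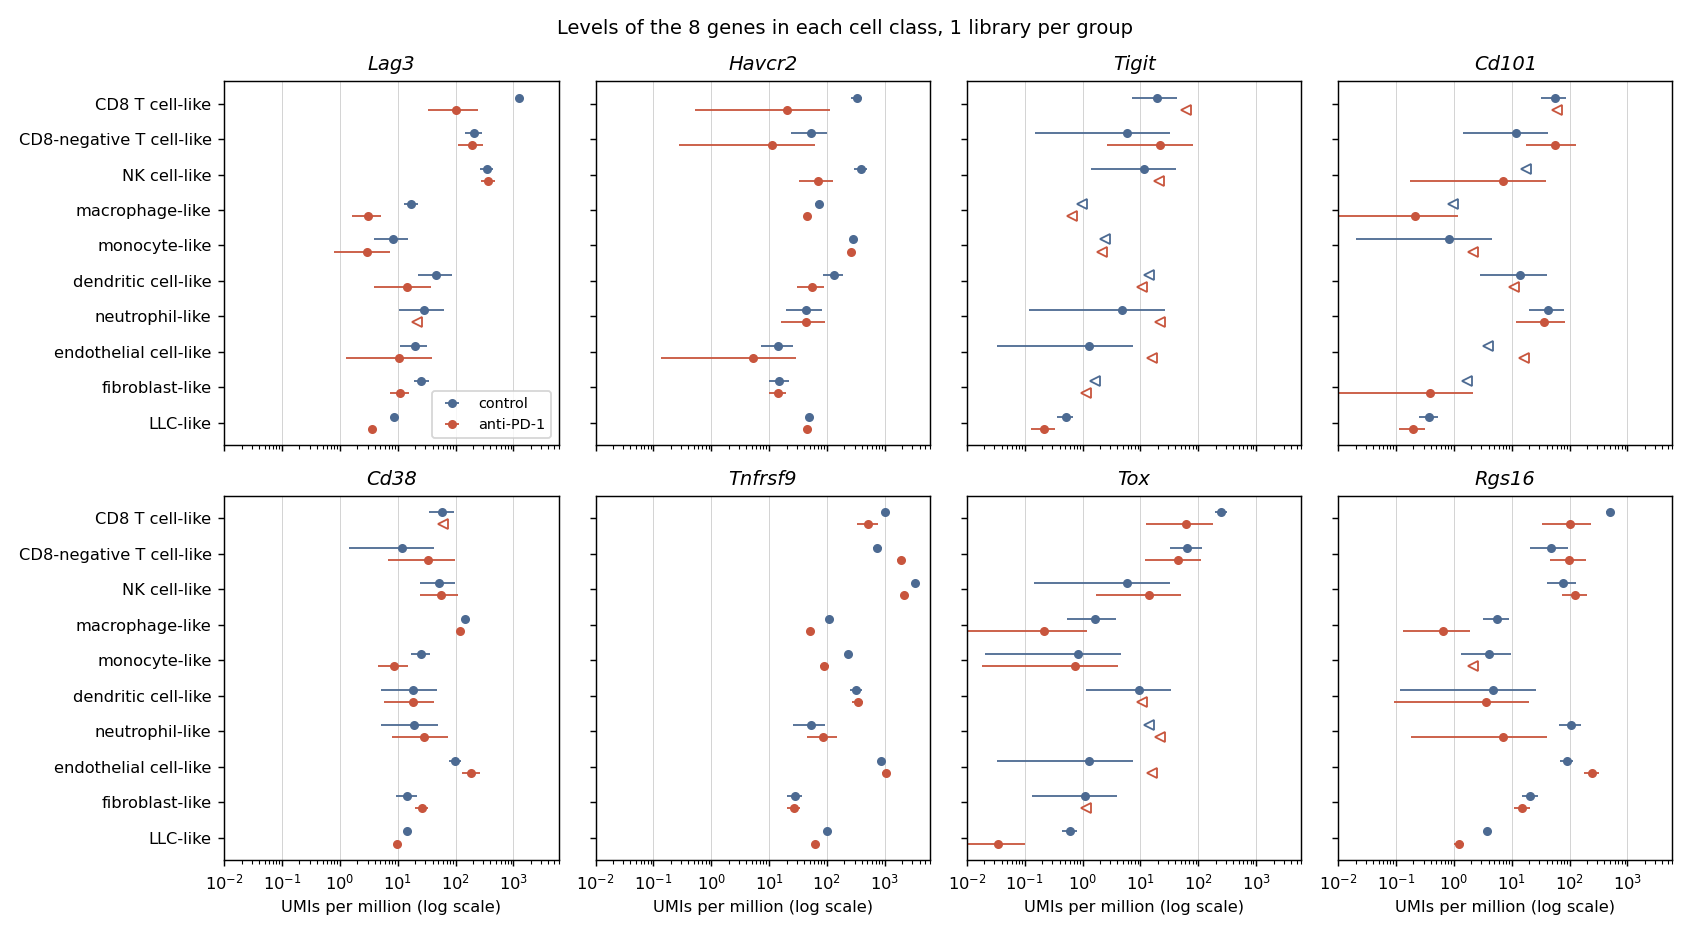
Level of each of the 8 genes (CPM, log scale) in each cell class of the control (blue) and anti-PD-1 (red) library, with exact 95% Poisson intervals; open triangles mark the level of 3 counts where no UMI was read. In the control library Lag3, Tox and Rgs16 are highest in CD8 T cell-like cells, Tnfrsf9 in NK cell-like cells and Cd38 in macrophage-like cells, and Lag3 stands at 1249.9 against 103 in CD8 T cell-like cells.

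In T cell-like cells, 4 of 7 measured genes (at least 20 UMIs over both libraries; Tigit had fewer) were over 2-fold lower in anti-PD-1, where 9.43% of all measured genes were. Their median log2 ratio was -1.72, and that of all genes was -0.07. Lag3 had 429 UMIs in control and 22 under anti-PD-1 (log2 ratio -2.48, -3.17 to -1.86), Tox 89 and 7 (-1.86), and Rgs16 162 and 14 (-1.72). Havcr2 had 110 and 2 (226 and 14.4 CPM, -3.97, -7.04 to -2.09). Tnfrsf9 went the other way, at 909 CPM in control and 1409 under anti-PD-1 (0.63, 0.38 to 0.88), and without the 1 cell of each library that held most of its UMIs the log2 ratio was 0.34. Cd101 (39.0 and 35.9 CPM) and Cd38 (41.0 and 21.6 CPM) had intervals that include 0. With T cell-like cells taken from clusters of cells, 347 control and 164 anti-PD-1, Lag3 stood at -3.24, Rgs16 at -2.96, Tox at -2.77, Havcr2 at -1.27 and Tnfrsf9 at 0.10.

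The make-up of the T cell-like cells differed as well. Cells with Cd8a or Cd8b1 and without Cd4, Cd40lg or Foxp3 UMIs, called CD8 T cell-like, were 153 of 237 in control (64.6%, 58.1 to 70.6) and 24 of 88 in anti-PD-1 (27.3%, 18.3 to 37.8). Gamma delta T cell markers summed to 43.1 CPM in control and 489 CPM in anti-PD-1 T cell-like cells. The genes were therefore read within each subset, at median depths of 1522 and 1484.5 UMIs in CD8 T cell-like cells. These carried T cell markers at 5652 and 5761 CPM and CD8 markers at 2419 and 2009 CPM, while NK cell markers stood at 520 CPM in control and 41.0 under anti-PD-1 and macrophage markers at 1008 and 800. Red blood cell markers stood at 801 and 61.5 CPM, and the part of the NK and red blood cell RNA in the ratios below was not tested.

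Within CD8 T cell-like cells, the inhibitory receptors Lag3 and Havcr2 and the regulators Tox and Rgs16 were lower in anti-PD-1. Of 5 measured genes, 4 were over 2-fold lower, where 16.0% of all measured genes were, with a median of -2.27 against -0.10 for all genes. Lag3 had 387 UMIs in the 153 control cells and 5 in the 24 anti-PD-1 cells, or 1249.9 CPM (1128 to 1381) and 103 CPM (33.3 to 239), a log2 ratio of -3.61 (-5.24 to -2.37). The most Lag3 UMIs in any 1 control cell were 21, so the level was spread over many cells: 70.6% of control cells (108 of 153) and 16.7% of cells under anti-PD-1 (4 of 24) had a UMI. With each cell thinned to 500 UMIs the shares were 47.1% (38.9 to 55.3) and 8.33% (1.03 to 27.0), whose intervals do not overlap. In LLC-like cells, taken as the background, they were 0.636% and 0.161%.

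Havcr2 had 101 UMIs in control and 1 under anti-PD-1 in CD8 T cell-like cells, or 326 CPM (266 to 396) and 20.5 CPM (0.519 to 114), a log2 ratio of -3.99 (-9.31 to -1.48). The thinned shares of cells with a Havcr2 UMI were 13.1% (20 of 153) and 4.17% (1 of 24), and their intervals overlap, while unthinned they were 35.3% and 4.17%. In LLC-like cells the thinned shares were 2.60% and 2.17%. This ratio depended on how the cells were classed: with CD8 T cell-like cells from clusters, 214 and 35 cells, Havcr2 had 182 and 14 UMIs and stood at -1.17, while Lag3 stood at -3.29. In the 104 and 14 cells of 1000 genes or more Havcr2 had 87 and 0 UMIs, a ratio of at most -2.09 when set against 3 counts. Tigit had 6 UMIs in control and 0 under anti-PD-1, Cd101 17 and 0, and Cd38 18 and 0. At the depth of the anti-PD-1 cells 3 counts are 61.5 CPM, which is above the control levels of 19.4, 54.9 and 58.1 CPM, so a difference in these 3 was not detectable.

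The regulators followed Lag3 in direction. Tox had 77 and 3 UMIs, or 249 CPM (196 to 311) and 61.5 CPM (12.7 to 179.7), with a log2 ratio of -2.02 (-4.32 to -0.41), and no cell held more than 5 of its UMIs. Rgs16, which switches off signalling from G protein-coupled receptors and is induced by T cell receptor signals, had 153 and 5 UMIs, or 494 CPM (419 to 579) and 103 CPM (33.3 to 239), at -2.27 (-3.91 to -1.02). Tox was read in 52 of 153 control cells and 3 of 24 anti-PD-1 cells, and Rgs16 in 60 and 3. Thinned, the shares for Tox were 11.8% and 4.17% and for Rgs16 19.6% and 4.17%, and for each the intervals overlap.

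Tnfrsf9 had the smallest ratio of the 5 measured genes within CD8 T cell-like cells. It had 311 and 25 UMIs, or 1004 CPM (896 to 1123) and 513 CPM (332 to 757), at -0.97 (-1.62 to -0.38), with UMIs in 60.1% and 41.7% of cells unthinned and in 29.4% and 20.8% thinned. With CD8 T cell-like cells from clusters it stood at -0.26. Pdcd1, which encodes PD-1 itself and is not one of the 8, stood at 1176 and 431 CPM (-1.45, -2.16 to -0.82) in the same cells. That puts Pdcd1 between Tnfrsf9 and the other 4 genes in the size of its ratio, although of the 5 intervals it is that of Lag3 alone that does not overlap the interval of Pdcd1.

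Single CD8 T cell-like cells of the control library often held more than 1 of the 8 genes. Thinned to 500 UMIs, 36.6% of control cells (56 of 153, 29.0 to 44.8) and 4.17% of cells under anti-PD-1 (1 of 24, 0.105 to 21.1) had a UMI of at least 2 of them. No gene of the 8 was read in 25.5% of control cells (18.8 to 33.2) and in 70.8% of cells under anti-PD-1 (48.9 to 87.4), and 3 or more were read in 17.6% and 4.17%. Unthinned, the shares with at least 2 were 72.5% and 16.7%. The share depends on depth: thinned to 250 UMIs it was 18.3% and 4.17%, and thinned to 1000 UMIs it was 65.3% of 124 cells and 9.52% of 21 cells. At each of these depths the control share was the higher and the intervals did not overlap at 500 or 1000 UMIs.

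**Figure D2:**
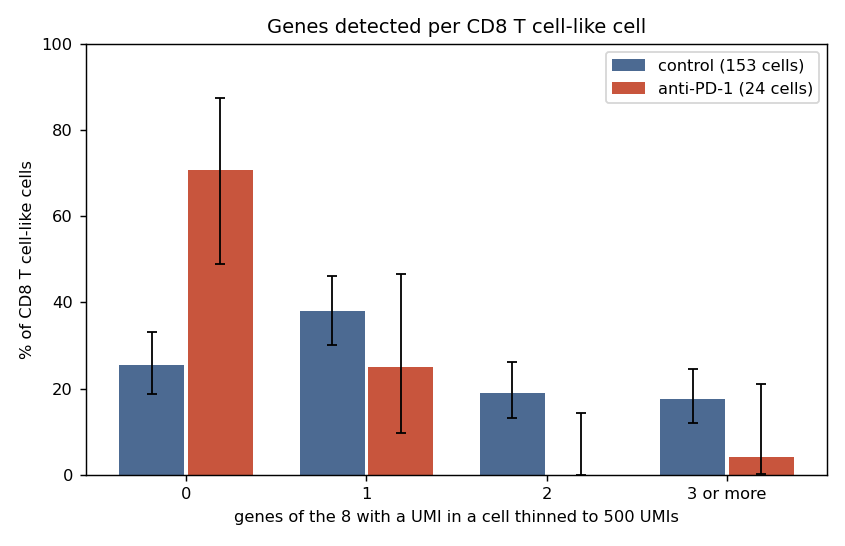
Percent of CD8 T cell-like cells (y axis) by the number of the 8 genes with a UMI after each cell was thinned to 500 UMIs (x axis), for 153 control cells (blue) and 24 anti-PD-1 cells (red), with exact 95% binomial intervals. Cells with none of the 8 make up 25.5% of control and 70.8% of cells under anti-PD-1, and cells with 3 or more make up 17.6% and 4.17%.

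Among the control CD8 T cell-like cells more of the cells with Havcr2 also held the other genes, while summed levels differed less. The 54 cells with a Havcr2 UMI, at a median of 1844 UMIs, had 1354 CPM of Lag3, 593 of Rgs16, 1136 of Tnfrsf9 and 275 of Tox. The 99 cells without one, at a median of 1358 UMIs, had 1162, 411, 894 and 226 CPM, and for each of the 4 the intervals of these levels overlap. The shares of cells with a UMI were further apart: 92.6% (82.1 to 97.9) and 58.6% (48.2 to 68.4) for Lag3, 77.8% and 50.5% for Tnfrsf9, and 59.3% and 28.3% for Rgs16, none of which overlap, though the cells with Havcr2 were also the deeper ones and no thinning was applied. Gzmb, chosen after its values were seen, stood at 3245 CPM (2955 to 3556) with and 1728 CPM (1534 to 1938) without Havcr2. Entpd1 (CD39), an ectoenzyme of late exhaustion, stood at 261 and 173 CPM, and Pdcd1 at 1206 and 1150. The 9 control cells with a UMI of Tcf7, the transcription factor of progenitor T cells, had 214 CPM of Lag3 and 143 of Pdcd1, against 1299 and 1225 in the 144 without one. Rgs16 had 0 UMIs in those 9 cells and 153 in the others, whereas Tox stood at 286 and 247 CPM. These splits rest on few UMIs (3 of Lag3 and 4 of Tox in the 9 cells) and describe 1 library.

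T cell-like cells without a CD8 UMI numbered 80 in control and 64 under anti-PD-1 and had a different pattern. Only Lag3 and Tnfrsf9 reached 20 UMIs there. Lag3 had 35 and 17 UMIs (206 and 188 CPM, -0.13, -1.06 to 0.74), although it stood at -1.32 in cells classed from clusters. Tnfrsf9 had 126 and 171 UMIs, or 742 and 1893 CPM, and was higher in anti-PD-1 (1.35, 1.01 to 1.69), so 1 of 2 measured genes was over 2-fold higher, where 6.65% of all measured genes were. The excess was uneven among cells. The 9 Foxp3-positive cells of each library, which are regulatory T cell-like, had 32 and 93 UMIs of Tnfrsf9 (2087 and 7386 CPM), and 1 of the anti-PD-1 cells held 48 of the 93. In the 8 and 13 cells with Cd4 or Cd40lg and no Foxp3 UMIs there were 15 and 46, of which 1 anti-PD-1 cell held 30, and in the 63 and 42 cells with neither there were 79 and 32 (580 and 528 CPM). Without the cell with most Tnfrsf9 UMIs in each library the CD8-negative ratio was 1.13, and with CD8-negative cells from clusters it was 0.43.

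Other genes of the same programmes in T cell-like cells were read from lists, given here as genes over 2-fold lower or higher among those measured, where 9.43% of all measured genes were lower and 4.09% higher. Of 8 measured inhibitory receptors (10 listed) beside the 8 genes, 3 were lower and 0 higher (median -0.49). Pdcd1 stood at -1.13, the SLAM receptor Cd244a at -1.63, Cd200r1 at -2.85 (76 and 3 UMIs, -5.16 to -1.25) and Entpd1 at -0.89, while Ctla4 was at 552 and 783 CPM (0.50). Of 7 measured costimulatory receptors, 0 were lower and 1 was higher (median 0.69). This was Tnfrsf4 (OX40), at 187 and 568 CPM (1.60), although it had 39 and 0 UMIs in CD8 T cell-like cells. Icos stood at 0.95, Tnfrsf18 (GITR) at 0.91 and Cd226 at 0.69 (-0.09 to 1.43). Of 11 measured transcription factors of exhaustion and activation (14 listed), 3 were lower and 0 higher (median -0.36). Nr4a2, which T cell receptor signals induce, had 233 and 8 UMIs (-3.06). The others called lower, Irf4 (22 and 2 UMIs) and Prdm1 (35 and 4), had intervals that include 0. Nr4a1 stood at -0.78 (-1.75 to 0.08), Tbx21 at -0.76 (-1.60 to -0.01) and Ikzf3 at 0.40 (-0.06 to 0.85).

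Of 9 measured genes of progenitor or stem-like T cells, 1 was lower and 4 were higher (median 0.38). Xcl1 stood at 82.1 and 345 CPM (2.07), Il7r at 1.23 and Lef1 at 1.06, while Tcf7 had 27 and 10 UMIs (0.38, -0.84 to 1.47). Of 11 measured effector genes (12 listed), 3 were lower and 1 higher (median -0.40), with Gzmc at 961 and 187 CPM (-2.36), Ccl3 at -2.32, Ifng at -1.34 and Ccl4 at -0.95. Of 11 measured ligands and partners of the receptors (16 listed), 1 was lower and 2 were higher (median 0.09). H2-Ab1, which encodes a chain of the MHC class II ligand of Lag3, stood at 0.86, and Lgals3 at -0.82. In CD8 T cell-like cells H2-Ab1 stood at -1.30, and the part of RNA from other cells in its values was not tested. Hmgb1 at -0.59 (-1.49 to 0.22) and Pecam1, a ligand of CD38, at 0.36 (-0.50 to 1.17) had intervals that include 0. Over all these lists 11 genes were lower and 8 higher, but with T cell-like cells from clusters the counts were 19 and 1. The counts thus changed with how the cells were classed. The share of all genes was not computed for the cluster classes, so 19 and 1 cannot be read as a result about the lists.

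In CD8 T cell-like cells alone, 6 of 7 measured inhibitory receptors beside the 8 genes were over 2-fold lower (median -1.45), against 16.0% of all measured genes. Ctla4 stood at -1.59 there and Entpd1 at -1.38 (-3.30 to 0.05). The effector list had 5 of 10 genes lower and 1 higher (median -1.55), with Gzmc at -4.46 (-7.51 to -2.59), Ccl3 at -3.96 (-9.28 to -1.45) and Ccl4 at -3.72 (-6.78 to -1.84). Gzmb, the granzyme B gene, which was chosen after its values were seen, went the other way, at 2422 and 3895 CPM (0.69), while Prf1 (perforin), chosen likewise, was at -2.45. The transcription factor list had 5 of 10 lower and 0 higher (median -0.99), led by Nr4a2 with 180 and 1 UMIs. The progenitor list had 0 of 5 lower and 3 higher, where 8.46% of all measured genes were higher (median 1.43). Lef1 stood at 1.43 (0.26 to 2.49) there, and Tcf7 had 12 and 5 UMIs. Of the 5, 2 had ratios below 0. Among them was Il7r, with 43 and 5 UMIs (-0.44, -2.13 to 0.89), unlike in T cell-like cells as a whole. Costimulatory receptors had 1 of 7 lower and 0 higher (median -0.29), and ligands and partners 3 of 7 lower and 0 higher (median -0.31). For the costimulatory receptors that is close to the share of all genes, 16.0% lower.

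NK cell-like cells, 63 in control and 79 under anti-PD-1, did not show the T cell pattern for Lag3. It had 59 and 52 UMIs (343 and 362 CPM, 0.08, -0.49 to 0.64). Of 4 measured genes, 1 was over 2-fold lower (Havcr2), where 4.72% of all measured genes were, and the medians were -0.26 for the 4 and 0.19 for all genes. Havcr2 had 66 and 10 UMIs (383 and 69.6 CPM, -2.46, -3.59 to -1.49), but 60 of the 66 were in 7 control cells. Those 7 cells had over 3 times the median depth (median 13106 UMIs, 1456.5 in the other 56), lower NK cell markers (median 2365 against 5771 CPM) and LLC markers at a median of 229 CPM, where the other 56 had 0. No anti-PD-1 cell was that deep. Without them Havcr2 had 6 and 10 UMIs and stood at 0.06.

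Tnfrsf9 in NK cell-like cells turned on the same 7 cells. It had 564 and 311 UMIs (3276 and 2164 CPM, -0.60, -0.80 to -0.40), of which 424 were in the 7 deep cells, and without them it had 140 and 311 UMIs and stood at 0.47. A Tnfrsf9 UMI was present in 66.7% of control and 79.7% of cells under anti-PD-1, or 52.4% (39.4 to 65.1) and 65.8% (54.3 to 76.1) after thinning, so most NK cell-like cells of both libraries carried this activation receptor and the shares overlap. The thinned share in LLC-like cells was 4.71% and 2.87%. Rgs16 had 13 and 18 UMIs in NK cell-like cells (0.73, -0.38 to 1.88). Of the 13, 8 were in the 7 deep cells, and without these cells it had 5 and 18 UMIs (55.7 and 125 CPM). Tox was nearly absent from NK cell-like cells, with 1 and 2 UMIs.

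**Figure D3:**
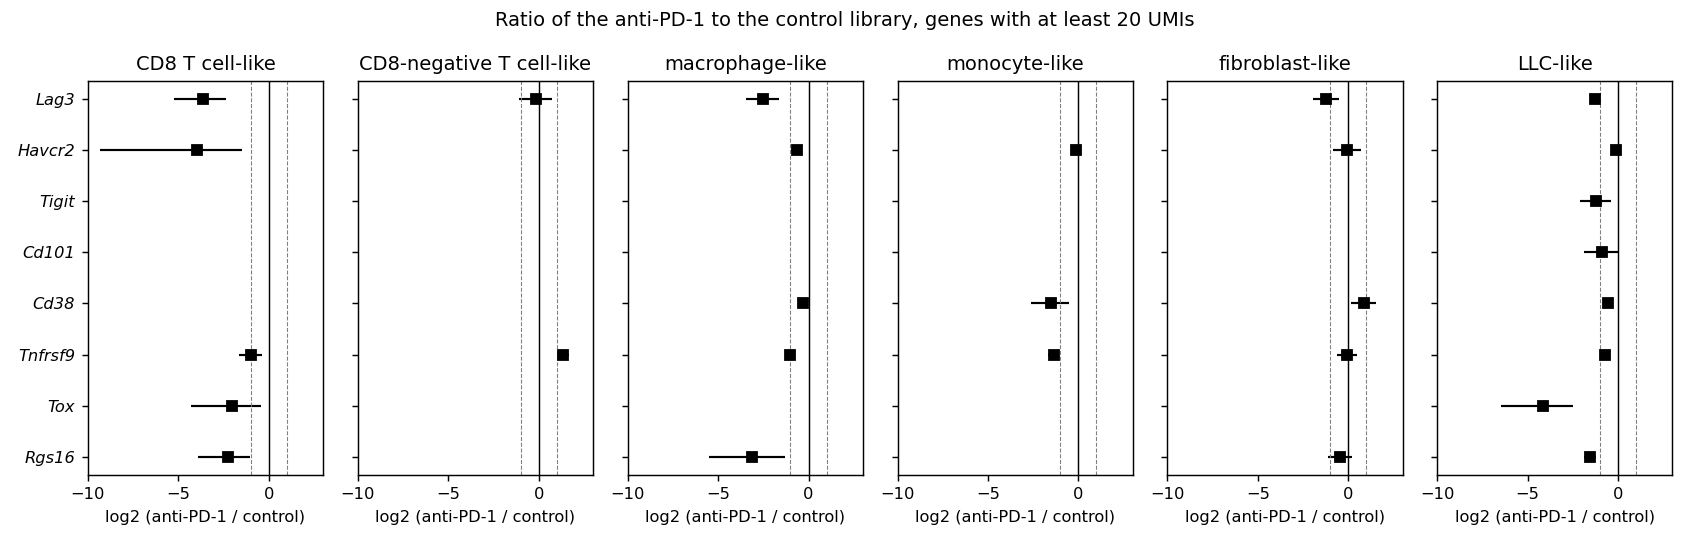
Log2 ratio of anti-PD-1 to control (x axis) for each gene with at least 20 UMIs over both libraries (y axis), by cell class, with exact 95% intervals and dashed lines at 2-fold. Lag3 is at -3.61 in CD8 T cell-like cells, at -0.13 in CD8-negative T cell-like cells and below 0 in the other classes in which it is plotted, and Tnfrsf9 is above 0 in CD8-negative T cell-like cells (1.35).

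Myeloid cells held UMIs of Havcr2, Cd38 and Tnfrsf9. In macrophage-like cells Tnfrsf9 was below its level over the whole libraries (127 and 70.9 CPM), and the part of RNA from other cells in it was not tested. In macrophage-like cells (793 and 1040) Cd38, the NAD-consuming ectoenzyme, had 453 and 558 UMIs (147 and 120.0 CPM, -0.30, -0.48 to -0.11), and Havcr2 had 221 and 211 (71.9 and 45.4 CPM, -0.66). Of 5 measured genes, 3 were over 2-fold lower, where 3.34% of all measured genes were: Tnfrsf9 (106 and 51.4 CPM, -1.05), Lag3 (16.9 and 3.01 CPM, -2.49) and Rgs16 (17 and 3 UMIs, -3.10, -5.51 to -1.31). Beside them, T cell markers stood at 42.6 CPM in control and 13.8 under anti-PD-1 macrophage-like cells, and the part of T cell RNA in the Lag3 and Rgs16 values was not tested. Cd38 was uneven among these cells: the 65 control cells over 3 times the median depth held 53.6% of its UMIs, and the 114 such anti-PD-1 cells 57.9%. Part of these shares is depth. Scaled for it, Cd38 stood at 266 CPM in the deep and 97.3 CPM in the other control cells. Under anti-PD-1 it stood at 192 and 79.2 CPM.

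Monocyte-like cells (448 and 505) had Havcr2 at a like level in both libraries, with 342 and 353 UMIs (279.7 and 256.6 CPM, -0.12, -0.34 to 0.09). Of 3 measured genes, 2 were over 2-fold lower, where 1.98% of all measured genes were: Tnfrsf9, with 284 and 124 UMIs (232 and 90.1 CPM, -1.37, -1.68 to -1.06), and Cd38, with 31 and 12 (-1.54, -2.64 to -0.54). Cd38 stood at 25.4 and 8.72 CPM there, against 22.6 and 16.7 over the whole libraries, and the part of RNA from other cells was not tested. T cell markers stood at 23.7 and 24.0 CPM in these monocyte-like cells. In dendritic cell-like cells (66 and 103) 1 of 2 measured genes was over 2-fold lower, where 6.49% of all measured genes were. This was Havcr2 (28 and 15 UMIs, -1.27, -2.28 to -0.32), and 23 and 12 of these UMIs lay in the 21 cells of each library with markers of type 1 conventional dendritic cells, which are known for it. Tnfrsf9 lay in the migratory ones, with 66 and 72 UMIs (596 and 689 CPM, 0.21, -0.29 to 0.71). In neutrophil-like cells (168 and 117) Rgs16 had 22 and 1 UMIs (-3.87, -9.24 to -1.24) and was the 1 of 2 measured genes called lower (6.0% of all measured genes), but 14 of the 22 were in 1 cell, which leaves 8 in all other control cells.

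Stromal classes differed in Tnfrsf9, Cd38 and Rgs16. In endothelial cell-like cells (58 and 30) Tnfrsf9 had 652 and 193 UMIs (856 and 1031 CPM, 0.27, 0.03 to 0.50), and Cd38 had 75 and 35 (98.4 and 187 CPM, 0.93, 0.30 to 1.52). Rgs16, with 68 and 45 (89.2 and 240 CPM, 1.43, 0.85 to 1.99), was the 1 of 3 measured genes over 2-fold higher, where 4.79% of all measured genes were. The endothelial Rgs16 ratio was 0.42 without cells over 3 times the median depth and 0.41 in cells classed from clusters, and that of Tnfrsf9 was -0.40 in the latter and 0.03 without the cell with most of its UMIs in each library. The 13 and 6 pericyte-like cells held 97 and 13 Rgs16 UMIs (310 and 776 CPM, 1.32, 0.36 to 2.16). Of these, 36 of the 97 and 5 of the 13 were in 1 cell, and the median depths were 10710 and 2560 UMIs. In fibroblast-like cells (166 and 294), 1 of 5 measured genes was over 2-fold lower, Lag3 (46 and 29 UMIs, -1.21, -1.93 to -0.51), where 5.55% of all measured genes were. T cell markers stood at 35.0 and 6.09 CPM beside it, and their part was not tested. In the fibroblast-like cells Cd38 had 26 and 68 UMIs (14.4 and 25.9 CPM, 0.84, 0.17 to 1.55), and Tnfrsf9 had 50 and 70. Rgs16 had 38 and 40 there (-0.47), with 34 of the 40 in 1 anti-PD-1 cell. Its ratio was -2.55 without the cell with most UMIs in each library.

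LLC-like cells, 3461 in control and 4976 under anti-PD-1, are deep enough to hold UMIs of all 8 genes. All 8 had ratios below 0 and 4 were over 2-fold lower (median -1.07, -0.01 for all genes), where 5.33% of all measured genes were. These 4 were Tox (48 and 3 UMIs, -4.15, -6.48 to -2.52), Rgs16 (290 and 108, -1.58), Lag3 (671 and 310, -1.27) and Tigit (40 and 19, -1.23). Tox stood at 0.609 CPM in control LLC-like cells and 249 in control CD8 T cell-like cells, and T cell markers in LLC-like cells at 17.0 CPM in control and 5.39 under anti-PD-1, with CD8 markers at 5.19 and 0.491. The part of free T cell RNA in these values was not tested. Havcr2 had 3840 and 3973 UMIs (48.7 and 45.4 CPM, -0.10, -0.17 to -0.04), Cd38 1141 and 848 (14.5 and 9.69 CPM, -0.58) and Tnfrsf9 7974 and 5345 (101 and 61.1 CPM, -0.73, -0.78 to -0.68).

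Tnfrsf9 was concentrated in 1 cluster of LLC-like cells, found in a clustering that left out all 8 genes. This was cluster 5, led by Nos2, Saa3, Adm and Slpi, in which Tnfrsf9 stood at 462 CPM in control and 556 under anti-PD-1 (0.27, 0.19 to 0.34), with a UMI in 86.0% and 81.0% of cells. In the other 7 clusters it lay between 24.0 and 95.6 CPM. Cluster 5 made up 12.97% of control (449 of 3461) and 5.39% of anti-PD-1 LLC-like cells (268 of 4976) and held 53.0% and 46.2% of their Tnfrsf9 UMIs. Outside it Tnfrsf9 stood at 53.8 and 34.6 CPM (-0.64, -0.71 to -0.57), and among the other clusters the ratio went from -1.31 in cluster 9 (95.6 and 38.5 CPM) to 0.53 in cluster 7 (41.6 and 60.1 CPM). Cluster 9 was led by Csf2ra and Thbs1 and held the macrophage gene C1qa at 162 and 168 CPM, against 25.4 to 50.6 in the other clusters.

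Havcr2 was read in every LLC-like cluster, lowest in cluster 0 (9.38 and 13.4 CPM) and cluster 16 (17.4 and 20.5 CPM) and otherwise between 33.9 and 68.3 CPM. The macrophage gene C1qa stood at 50.6 CPM in control cells of cluster 0, where Havcr2 was lowest. It stood at 36.8 in those of cluster 5, where Havcr2 was highest (68.3 CPM). In control cells of cluster 9, where C1qa was highest (162 CPM), Havcr2 stood at 49.6 CPM. No monocyte gene was read by cluster, and the part of macrophage or monocyte RNA in the Havcr2 values was not tested. Lag3 was lower in anti-PD-1 in all 8 clusters, with ratios from -1.72 to -0.48, and the interval of cluster 5 includes 0. The T cell marker Cd3e was also lower in all 8, on few UMIs in several of them. It stood at 6.09 and 0.172 CPM in cluster 9 and at 1.86 and 0.450 in cluster 5. The part of T cell RNA in the Lag3 values was not tested. Rgs16 was at -3.05 in cluster 9 (72 and 4 UMIs) and at 1.34 in cluster 5 (34 and 42 UMIs). The libraries filled the clusters unequally, with 1303 and 228 cells in cluster 7, 132 and 1551 in cluster 6 and 119 and 1805 in cluster 14.

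**Figure D4:**
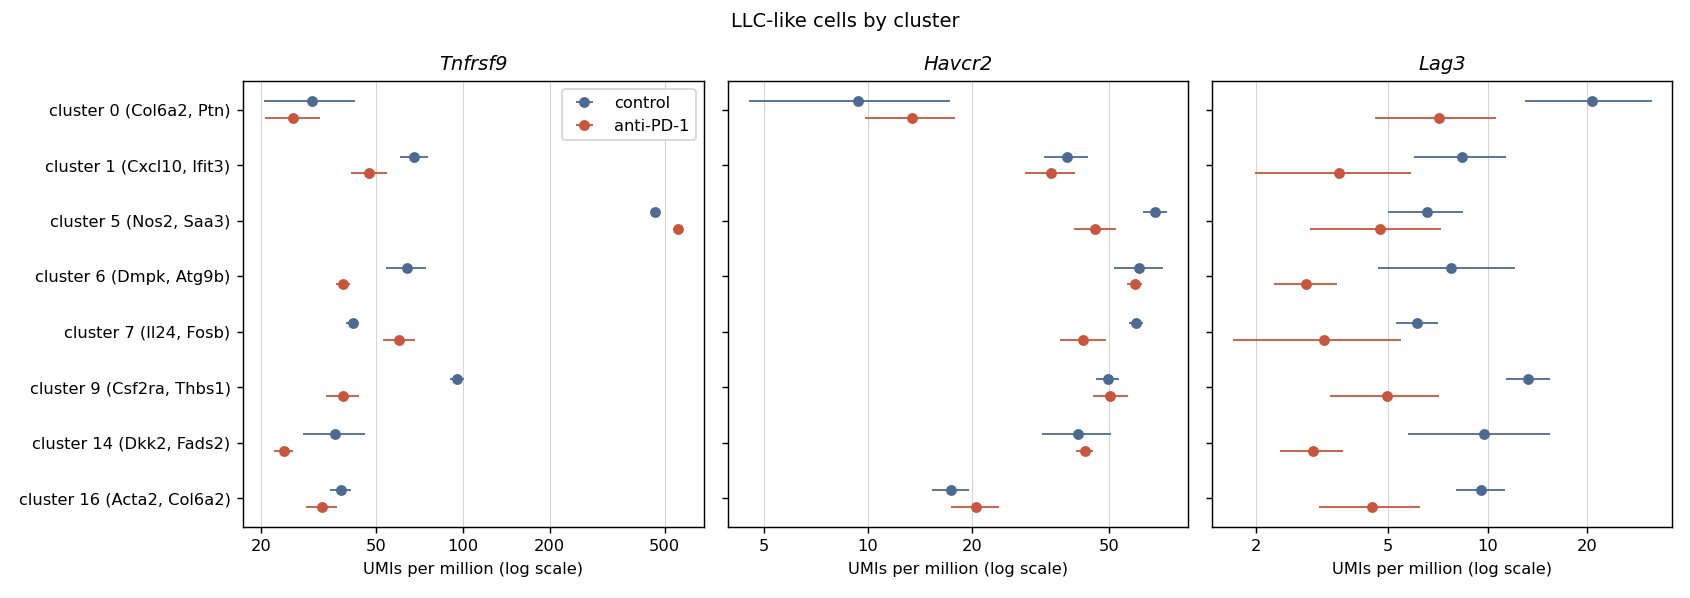
Level of Tnfrsf9, Havcr2 and Lag3 (CPM, log scale) in each cluster of LLC-like cells, with its 2 leading genes, for control (blue) and anti-PD-1 (red), with exact 95% Poisson intervals. Tnfrsf9 in cluster 5 stands at 462 and 556 CPM, above all other clusters. Lag3 is lower in anti-PD-1 in each cluster, as is the T cell marker Cd3e, which is not plotted.

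Genes with the most similar pattern were sought over 16 profiles, the 8 classes of at least 50 cells in both libraries, by Pearson r of log2(CPM + 1). Genes of at least 100 UMIs were searched. The profiles of 1 library share its depth and its free RNA, so r is given as a description. Lag3 was most like Gimap4 (0.958), Sh2d2a (0.947) and Trp53i11 (0.935), and Tox like Lat (0.945), Ubash3a (0.944) and Ikzf3 (0.923). Tnfrsf9 was most like Tespa1 (0.954), Clcf1 (0.943) and Cmtm7 (0.936), and Rgs16 like Ltk (0.907), Inpp1 (0.901) and Zfp831 (0.897). The values of Havcr2 and Cd38 were lower: Cklf (0.834), Actr3 (0.795) and Mfsd13a (0.795) for Havcr2, and Ccl8 (0.811), Selenop (0.790) and Slc9a9 (0.774) for Cd38. Ubash3a is one of the markers that define T cell-like cells here. The lists of Tigit (Neb at 0.982, Ccdc30 at 0.977 and Smyd1 at 0.964) and Cd101 (Siglech at 0.933, Ighd at 0.928 and Cnot4 at 0.911) rest on 98 and 144 UMIs in all.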

How the data were processed

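The files hold raw UMI counts per gene and cell barcode as the authors deposited them, 1 matrix per library. The submitters' processing notes name Cell Ranger 7.0.1 and mm10, while the file headers name version 9.0.1. The labels' protocols name the GEM-X Flex v2 kit, which counts probes, and also a 3' protocol. The 8 genes and the lists were chosen with earlier results of these data known. Barcodes under 300 genes, or with over 20% of UMIs from mitochondrial genes, were left out. A class needed at least 3 UMIs from at least 2 of its markers, at least 5 times the level in tumour cells. Cells whose second class scored over 50% of the first, or that also held LLC markers, were set aside as mixed, which stands in for a doublet caller. Pairs among the macrophage, monocyte and dendritic classes were exempt from the first of these rules, so such cells were kept. Named beside the 8 genes were Pdcd1, Ctla4, Tcf7 and Entpd1, and per list up to 4 genes of at least 50 UMIs with the largest ratio in T cell-like cells, of which 1 is not reported here. Levels of the whole libraries rest on 113219015 and 115405551 UMIs of kept cells. Intervals cover counting error only, and a 2-fold difference was the call, with no test, because each group is 1 library. Python 3.11.15, numpy 2.4.6, scipy 1.17.1, pandas 2.3.3 and scanpy 1.11.5 (40 components, 15 neighbours, resolution 1) were used. The computation of ratios and intervals was tested on simulated data with counting error only, without differences between cells. There, 6.87% of unchanged genes in T cell-like and 0.449% in LLC-like cells were called past 2-fold in either direction. Coordinates are from GENCODE M21 and promoter windows from RefSeq (GRCm38.p6).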

Additional observations from a re-analysis of the deposited data

How the results depend on the processing

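No paired analysis was possible because each group is 1 library, and no library could be left out. The 54 single-gene ratios were recomputed under 8 alternatives, which gave 399 values: 356 stayed within their counting interval and 43 moved outside it. In all, 18 values of 8 ratios changed sign. For 5 of these 18 the interval of the reported ratio excluded 0: Havcr2 in NK cell-like cells, Tnfrsf9 in NK cell-like cells (0.21 as the mean of each cell's CPM, 0.47 without deep cells) and Tnfrsf9 in endothelial cell-like cells (-0.51 as the mean, -0.40 with classes from clusters). Using all deposited barcodes, at least 1000 genes per cell, or a scaling total without mitochondrial, ribosomal and globin genes moved none of the 54. Classes from clusters moved 17 of 45 and the mean of each cell's CPM 13 of 54, and the causes were not tested. Leaving out the 1 cell with the most UMIs of a gene, an alternative chosen after seeing the data, moved 4 of 46. Without cells over 3 times the median depth, the Havcr2 ratio in NK cell-like cells went from over 2-fold lower to 0.058, and the count of genes over 2-fold lower there went from 1 to 0. The lists gave 19 lower and 1 higher with classes from clusters, and 5 and 3 among genes of at least 100 UMIs, where fewer genes were read. The share of all genes was not computed for either. The share of control CD8 T cell-like cells with at least 2 of the 8 genes was 18.3% and 65.3% at 250 and 1000 UMIs. With at least 2 UMIs per gene and no thinning, the anti-PD-1 share was 0%. The counts of genes over 2-fold lower in the whole library (4), T cell-like cells (4 to 5) and CD8 T cell-like cells (4 to 5) stayed within 1.5 times under every alternative run for each. The 24 anti-PD-1 CD8 T cell-like cells limit the depth: 3 counts there are 61.5 CPM.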

Other observations

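Outside the comparisons above, the 945 control cells set aside as mixed held 30.4% of the Lag3, 31.2% of the Tox and 31.0% of the Rgs16 UMIs of their library. The 766 such anti-PD-1 cells held 20.8%, 22.6% and 19.5%, and their source was not resolved. The single anti-PD-1 CD8 T cell-like cell with a Havcr2 UMI also held UMIs of Lag3, Tox, Rgs16 and Tnfrsf9. In type 1 conventional dendritic cell-like cells Tnfrsf9 had 2 UMIs in control and 20 under anti-PD-1, of which 19 were in 1 cell. Pdcd1 in migratory dendritic cell-like cells had 13 UMIs in control and 34 under anti-PD-1 (117 and 325 CPM, log2 ratio 1.47, 0.51 to 2.52), with 16 of the 34 in 1 cell, a gene fixed beside the 8 and read here outside T cells.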
